A study of Cynodon dactylon with 10 samples.

Results

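In leaves of bermudagrass (Cynodon dactylon), a warm-season grass of lawns and pastures, 226 assembled contigs were lower after drought and higher after submergence than in unstressed leaves. They were chosen by their measured values from 28456 contigs. The control mean had to be at least 1 and under 500 RPKM, the log2 change under drought -1 or lower, and the log2 change under submergence 1 or higher. RPKM is the number of reads relative to both the length of the contig and the size of the library, and each log2 change was taken between group means with 1 RPKM added to each, with no further scaling. Salt and heat played no part in the choice. Seedlings were 3 weeks old at the start and spent 7 days under their treatment before leaf RNA was sequenced, with 2 libraries for each of 5 groups. Drought was water withheld, salt was 400 mM NaCl, submergence was seedlings kept under water, and heat was a temperature of 42 °C. The control group was left unstressed, and all groups were wild type. Whether the paired libraries stand for separate plants is not in the labels, so each p-value below measures the spread between these libraries alone, and that spread may be technical.

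Water shortage and flooding stress a leaf in different ways. In drying soil, abscisic acid accumulates, stomata close and photosynthesis and growth slow, while protective proteins and solutes build up. Under water, gas exchange and light are restricted, ethylene is trapped in the tissue, and cells short of oxygen shift to glycolysis and fermentation and draw on carbohydrate reserves. A contig that falls in one state and rises in the other separates them by direction. The deposited identifiers are not paired with gene names, so the contigs are given by identifier and no gene function is assigned to them.

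Total RPKM per library ran from 751923 to 795078, and 23755 to 25948 contigs reached 1 RPKM. Absolute depth is unknown. Judged from the steps between low RPKM values, heat replicate 2 was the shallowest, with 0.792 times the depth of control replicate 1, and the submergence libraries had 1.001 and 0.892 times that depth. In whole leaves, fewer cells of a type and less RNA per cell cannot be told apart.

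Of the 23976 contigs in the control range, 1814 met the drought threshold (7.57%), 3332 met the submergence threshold (13.9%) and 226 met both (0.943%). These shares describe the selection and nothing is read from them. Both thresholds were met by 0 contigs with a control mean under 1 RPKM, where a fall of that size is impossible with 1 RPKM added. They were met by 1 contig above the range, comp47477_c0_seq3, at 1433 RPKM in the control, 693 under drought and 4771 under submergence. All 226 contigs passed the filter of at least 1 RPKM in at least 2 libraries, to which their submergence level alone was enough.

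As a group the contigs were scarce under drought, abundant under submergence, nearly as abundant under salt as in the control, and scarce again under heat. Their median level was 9.08 ± 0.173 RPKM in the control, 7.96 ± 0.247 under salt, 2.49 ± 0.0460 under heat, 1.95 ± 0.113 under drought and 42.7 ± 0.191 under submergence (SD, n = 2 each). The drought and submergence values are fixed in direction by the choice. Together the contigs made up 0.630% ± 0.00214 of all RPKM in the control, 0.156% ± 0.00196 under drought and 4.22% ± 0.0357 under submergence (SD, n = 2 each). Under heat they made up 0.294% ± 0.000234, and under salt 0.559% ± 0.00316 (SD, n = 2 each). A single contig, comp47477_c0_seq1, held 0.903% and 0.893% of all RPKM in the 2 submergence libraries. Without it the submergence share was 3.33% ± 0.0429 (SD, n = 2). The other groups were then at 0.610%, 0.154%, 0.547% and 0.293% for control, drought, salt and heat.

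**Figure D1:**
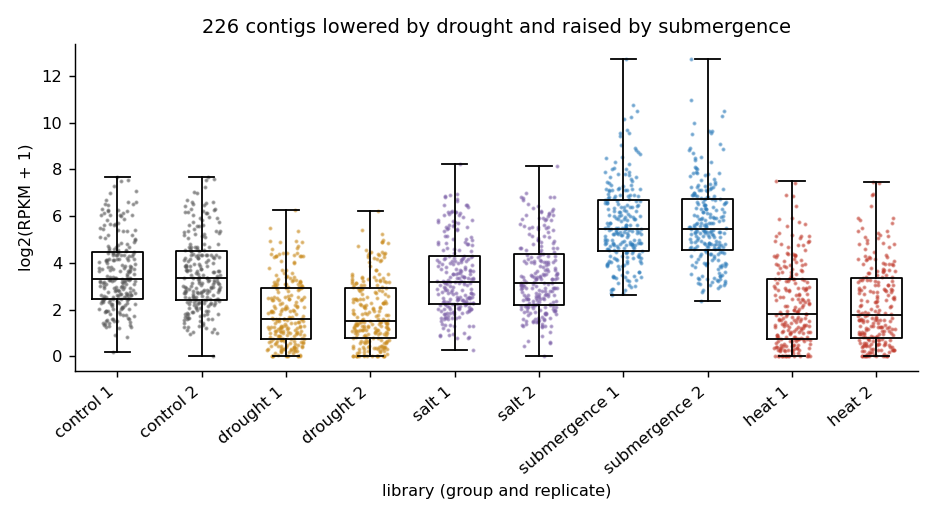
Levels of the 226 contigs in each of the 10 libraries, as log2(RPKM + 1), with 1 point per contig; boxes span the quartiles, the line is the median and whiskers reach the lowest and highest contig. The 2 submergence libraries stand highest, with medians of 42.6 and 42.9 RPKM, and the drought and heat libraries lowest, with medians of 1.87 to 2.52 RPKM.

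The size of the selected changes varied widely. On the scale of the choice, the median log2 change under drought was -1.50, with the largest fall at -4.09, and under submergence 1.64, from 1.01 to 8.73. Submergence levels were at least 8-fold up for 32 contigs, and drought levels at least 8-fold down for 17, while 109 rises and 125 falls were under 3-fold. Both submergence libraries lay above both control libraries for 226 contigs, and both drought libraries lay below both control libraries for 224. The exceptions were comp55720_c3_seq19, at 5.85 and 0 RPKM in the control and listed at 0 in both drought libraries, and comp62998_c0_seq1, at 3.55 and 1.03 RPKM in the control and 0.25 and 1.03 under drought. Both thresholds were met by 201 of the contigs from the libraries numbered 1 alone, by 199 from those numbered 2 alone, and by 181 from each. In the fit over all libraries, which scales them to each other, 223 were called lower at 2-fold under drought (8.02% of all contigs tested) and 159 higher at 2-fold under submergence (15.7% of all contigs tested). These calls, and the library counts before them, rest on the libraries that chose the contigs and are given as description. The same library counts were not made over all contigs. In the same fit the 226 had a median log2 change of -1.58 under drought and 1.34 under submergence. Over all contigs tested, the submergence median was 0.05 as scaled and 0.33 with unscaled values, which the choice used. The drought medians over all contigs were 0.00 and 0.04.

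The thresholds cut through a continuous range. At the drought threshold, comp61050_c0_seq4 lay just inside, with 4.65 RPKM in the control and 1.82 under drought (log2 -1.003). comp58717_c0_seq4 lay just outside, with 19.4 RPKM in the control, 9.21 under drought (log2 -0.998) and 51.5 under submergence. At the submergence threshold, comp60128_c0_seq17 lay just inside, rising from 11.6 to 24.3 RPKM (log2 1.01). comp50287_c0_seq1 lay just outside, with 30.6 and 62.1 RPKM (log2 0.997). Control means ran from 1.01 RPKM for comp55720_c3_seq24 to 206 RPKM for comp56898_c3_seq2, far under the upper limit of 500.

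Submergence was the highest of the 5 group means for 224 contigs. Heat was the highest for the other two, comp57607_c3_seq2 and comp58635_c0_seq2. Drought was the lowest group for 137 contigs and heat for 89, and salt for 0. The 137 include comp48638_c0_seq9, listed at 0 under both drought and heat, which the orders below count with heat last. The salt mean lay between those of drought and submergence for 226 contigs, and the heat mean lay there too for 134. The commonest orders, from high to low, were submergence, control, salt, drought, heat for 67 contigs and the same with drought and heat exchanged for 63. A further 31 had submergence, salt, control, heat, drought, and 23 had submergence, salt, control, drought, heat. The choice favours submergence at the top and drought at the bottom, and the orders of the means carry no test.

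The contigs in which both selected changes were large are described next. They were ranked by the smaller of their changes. In comp22168_c0_seq1, the 2 libraries held 12.23 and 12.04 RPKM in the control, 0.28 and 0.49 under drought, 8.09 and 9.01 under salt, 117 and 117 under submergence, and 1.17 and 1.94 under heat. No 2 groups overlapped, and the order was submergence, control, salt, heat, drought. The control mean was 31.5 times the drought mean, and the submergence mean was 9.64 times the control mean.

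comp47477_c0_seq1 was the most abundant of the 226 under submergence. Its libraries held 156 and 152 RPKM in the control, 14.9 and 18.1 under drought, 88.1 and 103 under salt, 6793 and 6718 under submergence, and 3.04 and 2 under heat. The submergence libraries were far above the rest, and the heat libraries were the lowest, below drought. It ranked 607 and 629 among all contigs in the control libraries and 1 and 2 in the submergence libraries, where it held 0.903% and 0.893% of all RPKM. Under heat its ranks were 21051 and 22408. comp47477_c0_seq4, a contig of the same subcomponent, came next under submergence, at 1753 and 2004 RPKM against 101 and 90.0 in the control. It held 23.9 and 18.3 RPKM under drought, 65.1 and 59.2 under salt, and 12.7 and 12.6 under heat, the same order of groups as its neighbour.

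The contigs most abundant in the control behaved differently from each other under salt and heat. comp56898_c3_seq2 held 206 and 206 RPKM in the control, 11.8 and 10.4 under drought, 119 and 112.5 under salt, 434 and 452 under submergence, and 6.58 and 7.32 under heat. Its heat and drought levels were both a small part of the control level. comp50508_c0_seq1 held 186 and 188 RPKM in the control, 75.1 and 73.5 under drought, 299 and 285 under salt, 1443 and 1443 under submergence, and 118 and 123 under heat. Here salt lay above the control and heat only moderately below it.

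Heat against salt is the comparison that the choice left untouched, since it used neither group. Most of the contigs were lower under heat: 129 of 226 (57.1%) were called lower at 2-fold and 4 (1.77%) higher, by limma at a Benjamini-Hochberg adjusted p under 0.05. Over all 26884 contigs tested the shares were 15.4% lower and 11.2% higher. Without a size limit, 178 were lower, against 37% of all contigs, and 23 higher, against 35.6%. The median log2 change was -1.22, from -5.86 to 1.84, and -0.01 over all contigs tested. Both heat libraries lay below both salt libraries for 176 contigs, against 37.5% of all contigs tested, and above them for 35, against 47.4%. The lower count was 82 when 1 contig was taken per subcomponent, which reduces the number of contigs by construction. The higher count was 8 with unscaled values and 7 without heat replicate 2. Over all contigs tested, the higher count was 3018 as scaled, 3749 with unscaled values and 3024 without heat replicate 2.

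**Figure D2:**
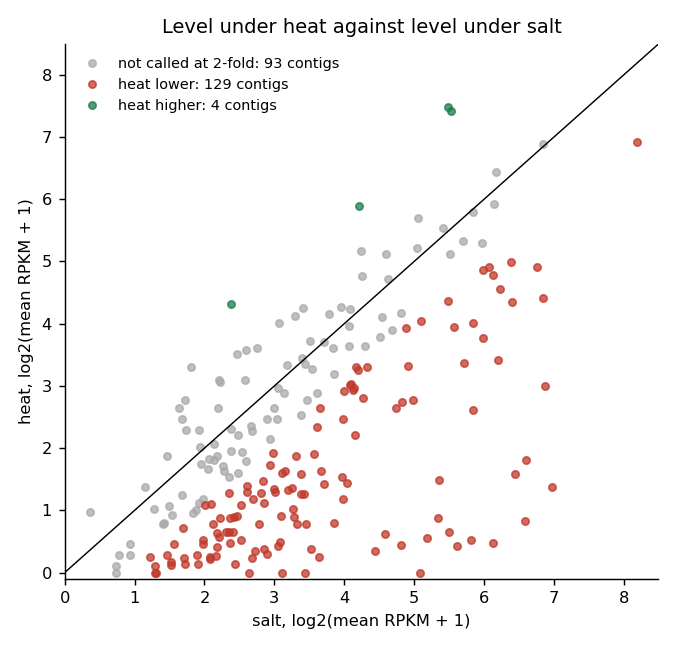
Level under heat (vertical axis) against level under salt (horizontal axis) for the 226 contigs, as log2(mean RPKM + 1) over 2 libraries each; the line marks equal levels and colour marks the call at 2-fold. The 129 contigs lower under heat spread to heat levels near 0, and the 4 higher ones lie above the line.

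The largest differences were in contigs nearly lost under heat. comp53434_c0_seq1 held 98.6 and 92.2 RPKM under salt and 0.77 and 0.78 under heat, with 92.2 and 95.5 in the control, 25.4 and 25.6 under drought and 367 and 369 under submergence. Salt and control overlapped, and heat lay far below drought. Its log2 change between heat and salt was -5.86 (SE 0.04, limma adjusted p = 1.94e-11). comp56898_c0_seq8 held 71.8 and 66.2 RPKM under salt and 0.33 and 0.45 under heat, with 90.2 and 97.5 in the control, 8.44 and 9.19 under drought and 206 and 223 under submergence. Heat was again the lowest group, with no overlap. The log2 change was -5.74 (SE 0.07, limma adjusted p = 2.49e-10). Fold changes on the log2(RPKM + 1) scale understate such falls, since the heat level is under the 1 RPKM added.

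The 4 contigs higher under heat than under salt were spread over 4 subcomponents. comp58635_c0_seq2 held 42.65 and 45.02 RPKM under salt and 182 and 173 under heat, with 42.0 and 42.8 in the control, 20.7 and 20.1 under drought and 140 and 134 under submergence. Its heat libraries were above its submergence libraries. The log2 change was 1.84 (SE 0.04, limma adjusted p = 4.66e-09). comp61636_c0_seq7 held 3.99 and 4.46 RPKM under salt and 19.7 and 18.3 under heat, with 4.77 and 4.55 in the control, 1.24 and 1.35 under drought and 93.3 and 97.8 under submergence. Heat lay between control and submergence, and the log2 change was 1.80 (SE 0.08, limma adjusted p = 1.50e-07). The other two, named because so few were called, were comp57607_c3_seq2, at 45.21 and 44.97 RPKM under salt and 169 and 170 under heat, and comp53990_c0_seq8, at 18.2 and 16.9 under salt and 58.5 and 58.9 under heat.

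The same comparison was made in contigs of the control range that met other parts of the rule. Of 1588 contigs that met the drought threshold and not the submergence threshold, 959 (60.4%) were lower and 24 (1.51%) higher under heat than under salt, with a median log2 change of -1.29. Of 3106 that met the submergence threshold and not the drought threshold, 181 (5.83%) were lower and 1009 (32.5%) higher, with a median of 0.59. Of 249 with the reverse pattern, up under drought and down under submergence, 60 (24.1%) were lower and 67 (26.9%) higher, with a median of 0.12. The 226 contigs thus had shares near those of the other contigs lowered by drought. Contigs of 1 list are not independent of each other, and the difference between the lists was not tested.

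**Figure D3:**
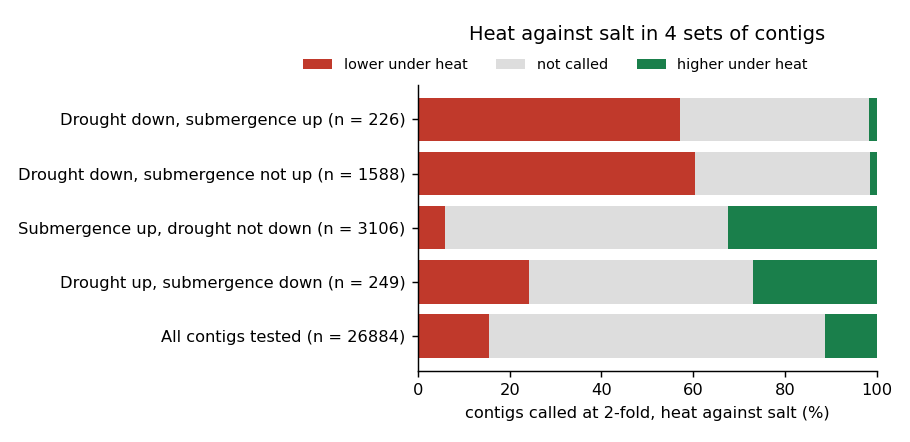
Share of contigs called lower (left, red), not called (grey) and higher (right, green) at 2-fold in heat against salt, in percent, for the 226 contigs, 3 other sets of the control range and all contigs tested. The 226 contigs have 57.1% lower and 1.77% higher, close to the 60.4% and 1.51% of the contigs that met the drought threshold alone.

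The share lower under heat than under salt was larger at higher control levels, in the 226 and in all contigs alike. It was 31 of 65 at a control mean of 1 to 5 RPKM, 55 of 100 at 5 to 20 RPKM and 43 of 61 at 20 to 500 RPKM, against 10.2%, 15.0% and 24.1% of all contigs at these levels. The 1 RPKM added before taking logs leaves less room for a 2-fold fall at low levels. How far this shapes the trend was not tested. The 129 contigs called lower had median levels of 9.51 RPKM in the control, 9.43 under salt, 1.16 under heat, 1.79 under drought and 53.8 under submergence. The 93 that were not called had 7.27 in the control, 5.34 under salt, 5.83 under heat, 2.04 under drought and 32.1 under submergence. The sets were formed by this same call, so the gap or likeness of their heat and salt medians follows from the split. Their low drought levels follow from the choice. Without a size limit, some of the 93 were called lower under heat than under salt and some higher.

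Heat was also set against the control. The control libraries served in the choice, so these counts are not independent of it. At 2-fold, 146 of the 226 (64.6%) were lower under heat and 6 (2.65%) higher by limma, against 15.8% and 12.2% of all contigs tested. Without a size limit, 190 were lower, against 36.3% of all contigs, and 19 higher, against 35.7%. Both heat libraries lay below both control libraries for 190, against 34% of all contigs tested, and above them for 25, against 50.3%. The median log2 change was -1.55, and 0.00 over all contigs. Of the 1588 contigs that met the drought threshold alone, 1107 (69.7%) were lower at 2-fold and 5 (0.315%) higher, with a median of -1.57. Of the 3106 that met the submergence threshold alone, 155 (4.99%) were lower and 1219 (39.2%) higher, with a median of 0.75. The low heat level was thus shared with other contigs lowered by drought. Among all contigs tested the balance depended on the scaling, with 3292 higher and 4236 lower as scaled and 4461 higher and 3384 lower with unscaled values, whose median over all contigs was 0.14. With unscaled values, 136 of the 226 were lower and 8 higher.

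The contigs lowest in heat against the control came from the subcomponent with the most of the 226. comp56898_c0_seq5 held 179 and 192 RPKM in the control, 18.8 and 19.1 under drought, 123 and 126 under salt, 401 and 416 under submergence, and 1.81 and 1.36 under heat. The 5 groups did not overlap, and heat was the lowest. Its log2 change in heat was -6.38 (SE 0.07, limma adjusted p = 1.35e-10), and that of comp56898_c0_seq8, given above, was -6.26 (SE 0.07, limma adjusted p = 1.20e-10). At the other end, comp58635_c0_seq2 was higher by 1.81 (SE 0.04, limma adjusted p = 4.20e-09). comp59450_c1_seq43 had the highest fitted change, 1.96 (SE 0.55, limma adjusted p = 0.0119), but its control libraries held 0.13 and 3.55 RPKM against 8.06 and 9.60 under heat. It held 3.11 and 1.86 RPKM under salt and 11.2 and 11.2 under submergence, and it was listed at 0 in both drought libraries. The 2-fold call rested on single libraries: the log2 change in heat was 0.91 without control replicate 1 and 3.02 without control replicate 2, and it was 1.85 and no longer past the threshold without heat replicate 2 (limma adjusted p = 0.0550). The others called higher were comp53990_c0_seq8, comp58600_c0_seq11, comp61636_c0_seq13 and comp61636_c0_seq7.

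The heat mean was below the drought mean for 89 of the 226 contigs and above it for 136, and both means were 0 for comp48638_c0_seq9. The drought libraries chose the contigs for being low, which favours heat above drought, so these counts are a description. The heat mean was above the control mean for 33. Both heat libraries were listed at 0 for 7 contigs, and both drought libraries for 5.

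**Figure D4:**
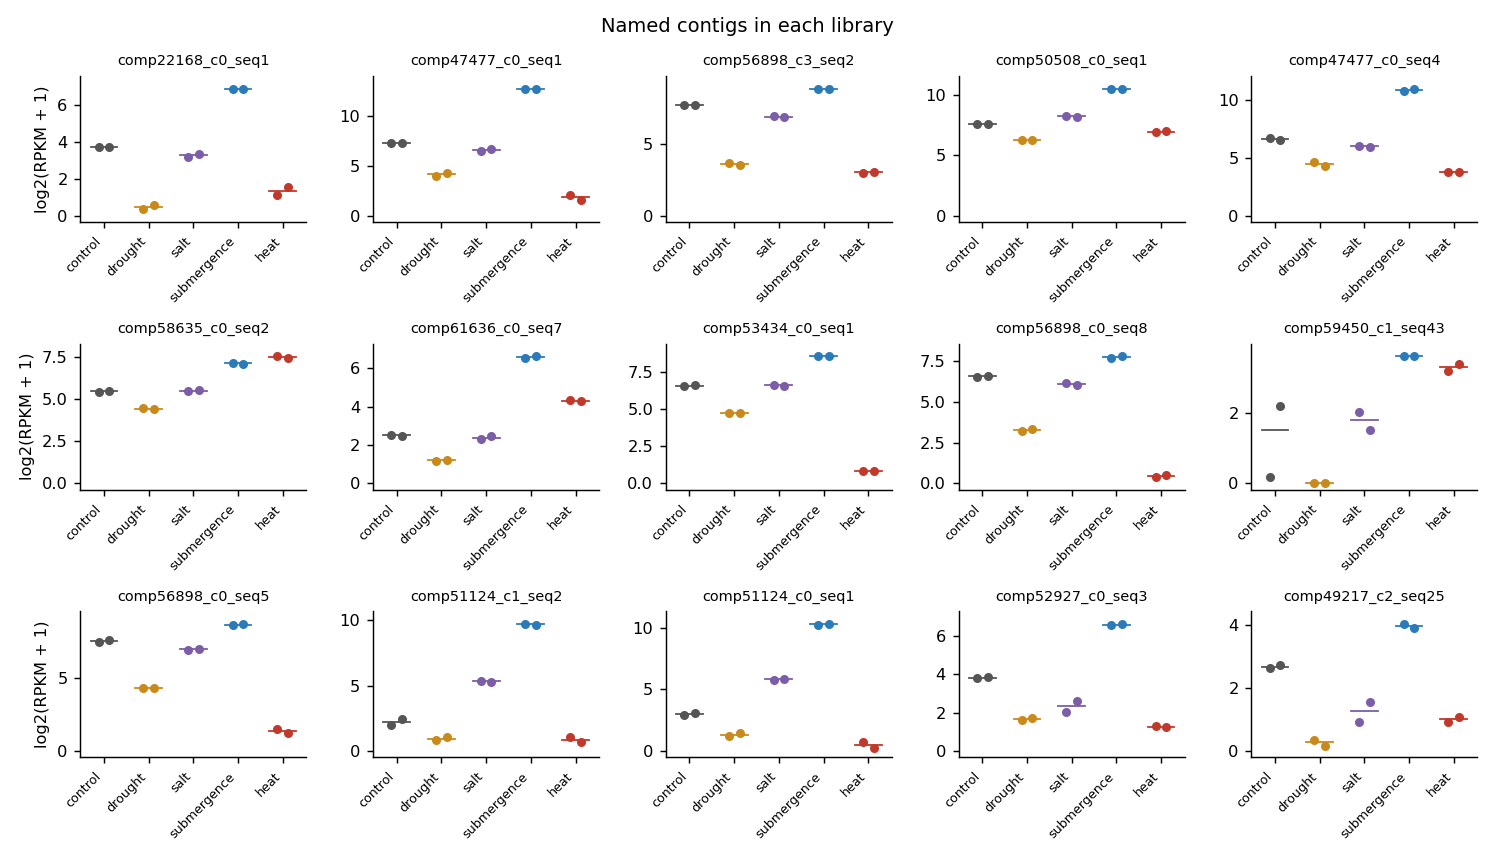
Levels of the named contigs in each library, as log2(RPKM + 1), with 2 points per group for the libraries and a short line at the group mean; the vertical scale differs between panels. Submergence is the highest group except in comp58635_c0_seq2, where heat is higher, and heat is far below drought in comp53434_c0_seq1 and comp56898_c0_seq8.

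Salt moved few of the contigs at 2-fold. Against the control, whose libraries again served in the choice, 15 (6.64%) were lower at 2-fold and 6 (2.65%) higher by limma, against 0.316% and 1.38% of all contigs tested. Without a size limit 90 were lower, against 12% of all contigs, and 18 higher, against 13.9%. Both salt libraries lay below both control libraries for 136, against 21.5% of all contigs tested, and above them for 41, against 40.5%. The median log2 change was -0.25, and 0.00 over all contigs. Of the 1588 contigs that met the drought threshold alone, 34 (2.14%) were lower at 2-fold and 645 (40.6%) at any size, while 3 (0.189%) were higher at 2-fold. Of the 3106 that met the submergence threshold alone, 3 (0.0966%) were lower at 2-fold and 82 (2.64%) higher. Of the 6 higher calls, 1 was in a contig with a control mean from 5 RPKM, and with 1 contig per subcomponent 9 lower calls were made.

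The 6 contigs raised by salt had low control levels and very high submergence levels, and all 6 were also lower under heat than in the control at 2-fold. comp51124_c1_seq2 held 3.03 and 4.48 RPKM in the control, 39.9 and 38.8 under salt, 833 and 802 under submergence, 0.83 and 1.07 under drought, and 1.07 and 0.62 under heat. Salt and submergence lay above the control, and drought and heat overlapped below it. Its log2 change in salt was 3.05 (SE 0.16, limma adjusted p = 1.26e-05). comp51124_c0_seq1 held 6.74 and 7.49 RPKM in the control, 53.1 and 56.9 under salt, 1199 and 1243 under submergence, 1.35 and 1.70 under drought, and 0.68 and 0.20 under heat. The groups did not overlap, and the log2 change in salt was 2.72 (SE 0.14, limma adjusted p = 1.26e-05).

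Of the 6, 4 belong to component comp51124, in 3 subcomponents. Their summed level was 14.9 RPKM in the control, 123 under salt, 1.56 under heat, 3 under drought and 2750.3 under submergence. The salt level of these 4 and of comp33858_c0_seq1 was 3.85% to 5.88% of the submergence level, and that of comp55720_c5_seq1 was 0.487%. The source of the RNA behind these contigs was not tested.

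The 15 contigs lowered by salt also came in part from a few subcomponents. The subcomponent comp49217_c2 gave 5 of them, component comp52927 gave 3 and subcomponent comp55254_c2 gave 2. comp52927_c0_seq3 held 13.1 and 13.4 RPKM in the control, 3.15 and 5.04 under salt, 2.13 and 2.29 under drought, 94.5 and 97.1 under submergence, and 1.49 and 1.36 under heat. Salt lay between control and drought. Its log2 change in salt was -1.59 (SE 0.15, limma adjusted p = 0.000222). comp49217_c2_seq25 held 5.17 and 5.53 RPKM in the control, 0.89 and 1.95 under salt, 0.29 and 0.13 under drought, 15.2 and 13.9 under submergence, and 0.91 and 1.13 under heat. Salt and heat overlapped, above drought, and the log2 change in salt was -1.51 (SE 0.20, limma adjusted p = 0.000978). Of the 15, 13 were also lower under heat than in the control at 2-fold, and 127 further contigs were lower under heat without a 2-fold call under salt. Since both comparisons use the same control libraries, these counts are given side by side with no overlap test.

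Many of the 226 were contigs of the same assembled unit. Identifiers that differ only in their last part share a subcomponent, which can hold variants of 1 transcript or close copies of a gene, and reads may have been split between them, so the single values of such contigs are uncertain. The 226 fell in 159 subcomponents. In 36 of these there were 2 or more of them, 103 contigs in all, and 72 contigs were the only contig of their subcomponent. The other 154 (68.1%) had at least 1 further contig in it, against 50.5% of all contigs tested. When the values of each subcomponent were summed before the rule was applied, 120 subcomponents met it.

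The subcomponent with the most was comp56898_c0, where 9 of 14 contigs met the rule. Their summed level was 645.5 RPKM in the control, 440.3 under salt, 6.36 under heat, 67.8 under drought and 1624 under submergence. The highest of the 9 under heat was at 1.98 RPKM, whereas control means ran from 8.78 to 186 RPKM. The 5 other contigs of comp56898_c0 were lower under heat and drought too, and fell short of the submergence threshold or of both. Next came comp55720_c3 with 6 of 15 contigs, comp49217_c2 with 6 of 7 and comp60535_c4 with 6 of 6. In comp60535_c4 the summed level was 40.4 RPKM in the control, 30.1 under salt, 3.12 under heat, 9.90 under drought and 205 under submergence.

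The same subcomponents held 247 other contigs that did not meet the rule, and only part of them leaned the same way. Their median log2 change was -0.59 under drought and 0.75 under submergence. Of these, 133 were below 0 under drought and above 0 under submergence, 55 were above 0 under both, 43 below 0 under both and 8 the opposite way. The drought threshold was met by 66 and the submergence threshold by 90, and 31 had a control mean under 1 RPKM. Of all contigs in the control range, 7.57% met the drought threshold and 13.9% the submergence threshold. The share of all contigs with the directions of the 133 was not counted. Of 87 subcomponents with more than 1 contig, 12 consisted only of contigs that met the rule.

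The strongest opposite movement was in comp53990_c0, where 2 contigs had a log2 change of at least 1 under drought and of -1 or lower under submergence. Its contig among the 226, comp53990_c0_seq8, held 20.4 and 22.5 RPKM in the control, 9.43 and 9.65 under drought and 103 and 107 under submergence. comp53990_c0_seq3 held 16.3 and 12.8 RPKM in the control, 102 and 88.4 under drought, 2.37 and 1.53 under submergence and 0.70 and 0.79 under heat. comp53990_c0_seq11 held 26.6 and 28.6 RPKM in the control, 99.9 and 97.0 under drought, 9.98 and 9.76 under submergence and 3.24 and 3.30 under heat. The libraries of comp53990_c0_seq8 lay below those of comp53990_c0_seq3 and comp53990_c0_seq11 under drought and above them under submergence, with no overlap. The rest of the subcomponent, seq4, seq5, seq7, seq9 and seq10, rose under submergence, by log2 1.37 to 4.65. Their log2 change under drought ran from -0.70 to 0.03, short of the threshold. In comp57429_c1, the next by this measure, comp57429_c1_seq19 changed by 0.35 under drought and -0.47 under submergence, from a control mean of 1.64 RPKM.

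**Figure D5:**
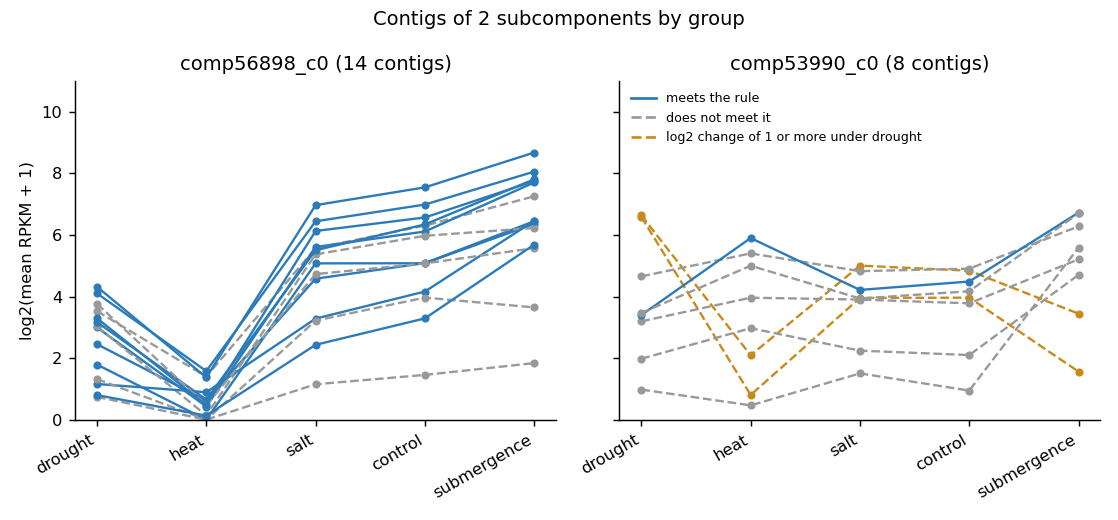
Group means as log2(mean RPKM + 1) for each contig of comp56898_c0 (left, 14 contigs) and comp53990_c0 (right, 8 contigs), with groups ordered along the horizontal axis as drought, heat, salt, control, submergence. On the left all 14 contigs have their lowest mean under heat, and the contigs that meet the rule have their highest under submergence, while on the right 2 contigs peak under drought and are low under submergence, opposite to comp53990_c0_seq8.

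Above the subcomponent, 144 components held at least 1 of the 226, and 12 of them held contigs in 2 or more subcomponents, 44 contigs in all. In comp56898, 10 contigs summed to 852 RPKM in the control, 556 under salt, 13.3 under heat, 79.0 under drought and 2067 under submergence. In comp60782, 5 contigs summed to 27.2 RPKM in the control, 26.9 under salt, 14.1 under heat, 5.68 under drought and 257 under submergence. These sums differ in their heat level relative to drought, below it in comp56898 and above it in comp60782.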

How the data were processed

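Leaf RNA of 10 libraries was sequenced, 2 per group. Each library has 1 column, headed RPKM, per the file headers, and these deposited values are not whole numbers although the file's name speaks of read counts. Tools named in the submitters' processing notes, with no role given, are DESeq 1.18.0, HTSeq 0.6.1, TopHat2 2.0.12 and Bowtie2 2.2.3. The assembly behind the contigs is not given in the sources used here. RPKM depends on contig length and on how reads were shared among similar contigs.

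The rule was applied to the unscaled group means. For the tests, libraries were scaled to control replicate 1 by an unweighted trimmed mean of log ratios (30% of ratios and 5% of levels trimmed at each end). The filter of at least 1 RPKM in at least 2 libraries kept 26884 contigs and left out 1572. The log2(RPKM + 1) values were modelled in R 4.3.3 (limma 3.58.1) on group alone, with a variance trend and 5 residual degrees of freedom. Calls needed a Benjamini-Hochberg adjusted p under 0.05 over all contigs, and at least 2-fold where stated. The fit was also run on simulated data. Those had independent noise, no library scaling and changes in a small part of the contigs, unlike these data, so nothing is drawn from that run. Python 3.11.15, numpy 2.4.6, pandas 2.3.3, scipy 1.17.1 and matplotlib 3.10.9 were used for the rest.

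The contigs, the comparison sets and the tests were chosen with earlier results of these data known. Contigs were named by a rule: the 2 with the largest smaller change, the 2 highest in the control and under submergence, the 2 highest and lowest called in each tested comparison, those nearest each threshold, the subcomponent with the most of them and the 2 with the strongest opposite movement. Any other contig was named after its values were seen. Alternatives covered scaling, pseudocount, filter, thresholds, variance trend, groups in the fit, a replicate block, 1 contig per subcomponent and leaving out each library.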

Additional observations from a re-analysis of the deposited data

How the results depend on the processing

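Of the alternative values, 313 stayed near the reported value, within a factor of 1.5 for a count and within the spread between libraries (1 SD) for a median, and 29 did not. No median changed sign. A median could not move with a replicate block, or when a library outside the compared groups was left out. Part of the 313 was therefore fixed in advance. The number of contigs that met the rule was 348 with 0.1 RPKM added, 148 with 2 RPKM added, 57 at thresholds of 1.5 and 120 with subcomponents summed; with scaled values it was 176, of which 158 were among the 226. Leaving out 1 library gave 221 to 232. For heat against salt, 8 contigs were higher at 2-fold with no scaling, 4 to 7 with a library left out, and 15 at any size at an adjusted p under 0.01; 82 were lower with 1 contig per subcomponent. The median of -1.22 became -1.10 with no scaling, -1.63 and -1.03 with 0.1 and 2 RPKM added, -1.32 from 5 RPKM in the control, -1.07 with 1 contig per subcomponent, and -1.27 to -1.21 with a library left out. For heat against control, 3 contigs were higher at 2-fold and 12 at any size from 5 RPKM in the control, 12 at an adjusted p under 0.01, and 91 were lower with 1 contig per subcomponent. The median of -1.55 became -1.36 with no scaling, -2.08 and -1.20 with 0.1 and 2 RPKM added, -1.78 from 5 RPKM, -1.31 with 1 contig per subcomponent, and -1.58 to -1.51 with a library left out. For salt against control, 1 contig was higher at 2-fold from 5 RPKM and 9 were lower with 1 contig per subcomponent. At any size 59 were lower at an adjusted p under 0.01, 59 with 1 contig per subcomponent and 61 to 97 with a library left out, and the median was -0.18 with no scaling. Fewer contigs entered the settings with a higher control level or 1 contig per subcomponent; for the others the cause was not tested. Of 240 alternatives for the named contigs, 238 kept direction and the 2-fold call and 0 reversed. Many of these could not reverse. The fitted change stays the same with a replicate block, another filter, no variance trend or only the compared groups. It also stays the same when a library outside the compared groups is left out. Most named contigs in these comparisons were extremes among those called, so the tally is no measure of stability. Both calls lost were those of comp59450_c1_seq43 in heat against control, without control replicate 1 and without heat replicate 2. Same-numbered libraries share only a number: over 10 pairs of groups their deviations correlated at -0.05 to 0.12, with 1 pair over 0.1. With the replicate block, 129 contigs were lower in heat than in salt and 84 lower in salt than in the control at any size, and no 2-fold count changed. Groups of 2 libraries and the unknown absolute depth limit the precision, most of all for contigs near 1 RPKM.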
